A study of Arabidopsis thaliana with 24 samples.

Results

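The RBOH genes (respiratory burst oxidase homologs) encode the plant NADPH oxidases, and Arabidopsis has 10 of them, RBOHA to RBOHJ. All 10 were taken from the table by their locus identifiers, out of 32833 genes, and not by their level. Earlier results of these data were known when the family was chosen. RNA sequencing measured transcripts in leaves of wild-type Col-0 plants of 4 to 5 weeks, in 24 libraries that form 8 groups of 3 replicates. Every plant carried a drop of 0.3% agarose, set for 15 min at a point between the leaf to be treated (local) and a distant one (systemic), which held either water or 50 mM diphenyleneiodonium (DPI). The local leaf was then exposed to light of 2000 µmol m−2 s−1 for 8 min (high light) or was not (control), and both the local leaf and the untreated systemic leaf were sampled. The 8 groups are thus water control, water high light, DPI control and DPI high light, each in local and in systemic leaves. All plants had grown at 23°C in days of 8 h of light at 50 µmol m−2 s−1 and 16 h of dark. Each replicate was a pool of leaves from many plants, so that the spread between libraries is a spread between pools. No drop-free plants and no other inhibitor of these enzymes were among the groups.

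An RBOH protein spans the plasma membrane, takes electrons from NADPH in the cytosol through a flavin (FAD) and haem groups, and passes them to oxygen in the apoplast, where superoxide forms and is converted to hydrogen peroxide. Calcium binding to EF hands at its N-terminus and phosphorylation by several kinases switch it on, so that the level of a transcript does not by itself give the activity of the enzyme. RBOHD is the member required for the ROS wave, in which each cell's burst of reactive oxygen species sets off that of the next, and for the burst that follows recognition of microbes. RBOHF acts with RBOHD in guard cell responses to abscisic acid and serves lignin deposition in the root endodermis. DPI blocks flavin enzymes in general, RBOH proteins among them, and is not specific to the family.

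RBOHD (AT5G47910) and RBOHF (AT1G64060) supplied nearly all RBOH transcripts in these leaves, and they are the members on which the results turn. The promoters of both are therefore shown, as the 300 bases before the annotated transcript start, from the RefSeq annotation of TAIR10.1 on the plus strand. That of RBOHD lies at chr5:19396741-19397040 and that of RBOHF at chr1:23769474-23769773, and no other annotated gene overlapped either. Capitals mark each match to one of the 5 motifs searched on both strands.
RBOHD: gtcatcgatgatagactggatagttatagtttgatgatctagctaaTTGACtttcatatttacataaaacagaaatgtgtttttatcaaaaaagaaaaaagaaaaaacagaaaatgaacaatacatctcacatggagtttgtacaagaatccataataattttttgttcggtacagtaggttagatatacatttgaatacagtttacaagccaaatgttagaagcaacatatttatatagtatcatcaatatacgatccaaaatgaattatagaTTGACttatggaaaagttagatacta
RBOHF: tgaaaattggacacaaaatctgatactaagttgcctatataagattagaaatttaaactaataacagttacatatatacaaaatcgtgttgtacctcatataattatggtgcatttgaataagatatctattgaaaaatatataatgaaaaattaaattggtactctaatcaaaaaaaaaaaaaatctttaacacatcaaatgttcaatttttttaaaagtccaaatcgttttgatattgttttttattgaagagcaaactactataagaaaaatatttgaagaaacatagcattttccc
The motifs were the W-box TTGAC (bound by WRKY factors), the ABRE core ACGTG (bound by abscisic acid-responsive bZIP factors), the G-box CACGTG, which contains the ABRE core, the CAMTA core CGCG, and a heat shock element GAANNTTC. The RBOHD window held 2 W-box matches, which begin 254 and 26 bases before the start, and no match to the other motifs. The RBOHF window held no match to any of them. Of 27443 promoter windows of this length, 50.4% held a W-box, 25.6% an ABRE core, 7.09% a G-box, 11.8% a CAMTA core and 11.5% a heat shock element. A W-box is thus present in about as many windows as lack one, and the matches are a description of letters and not of binding. The 2 windows had a GC content of 27% in RBOHD and 22.7% in RBOHF.

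The libraries held between 13492454 and 26913744 reads. The deposited values are read counts divided by a size factor for each library (normalized counts), and every value was a whole number of reads times 1 factor. A floor of 3 reads, the limit that a count of 0 allows, corresponded to between 2.00 and 4.27 normalized counts, and it covers counting error only. Markers of leaf mesophyll were at the highest levels of all marker lists in every library (summed level from 541626 to 653593 normalized counts over 3 genes), so that the label of leaf tissue was borne out. All 6 guard cell markers and all 4 vasculature markers were above the floor in every library. Of 6 root hair markers, 5 had no read in any library and PRP3 had 5 reads in all. Of 5 pollen markers only ANX1 lay above the floor throughout, at 81.0 to 120 normalized counts.

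Only RBOHD and RBOHF of the 10 members exceeded the floor in every library. RBOHD had 39206 reads over the 24 libraries, 84.9% of all 46200 reads of the family, and its mean level was higher than that of 94.4% of all genes in the table. RBOHF had 6760 reads, 14.6% of the family's, and a mean level higher than that of 73.1% of all genes. The other 8 members together had 234 reads, 0.506% of the family's reads. Per kilobase of their longest annotated transcript (3603 bases for RBOHD and 3994 for RBOHF), the mean levels of the pair were 456 and 69.7 normalized counts. In single libraries, the level of RBOHD per kilobase was between 4.07 and 10.5 times that of RBOHF, with a median of 6.38. By group means, the ratio was lowest in the water control leaves and highest in DPI high light local leaves.

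Of the remaining members, RBOHE, RBOHC and RBOHI lay near the floor. RBOHE (AT1G19230), which acts in the anther tapetum, had 96 reads, at least 1 in 23 libraries and more than 3 in 12. RBOHC (AT5G51060), which drives the tip growth of root hairs, had 77 reads, with more than 3 in 10 libraries. RBOHI (AT4G11230) had 50 reads, with more than 3 in 5 libraries. RBOHA (AT5G07390, 7 reads, at most 3 in a library), RBOHB (AT1G09090, 1 read), RBOHG (AT4G25090, 2 reads) and RBOHH (AT5G60010, 1 read) never exceeded the floor, and no read of RBOHJ (AT3G45810) was counted. RBOHB serves germination of after-ripened seeds, and RBOHH and RBOHJ serve growth of the pollen tube. At this depth, these 5 genes were counted with at most 3 reads in any library, which does not show that they were absent.

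High light raised RBOHD in the exposed leaf of water-treated plants. In the water control local leaves, RBOHD was at 1003, 997 and 1049 normalized counts in replicates 1 to 3. In the water high light local leaves, it was at 2408, 2475 and 2391. The groups were far apart, with every lit library above every control library. The means were 1016 ± 28.7 and 2425 ± 44.4 (SD, n = 3), a rise of 1.25 on the log2 scale (SE 0.0422, 95% interval 1.17 to 1.34, 2.38-fold), with an adjusted p of 1.06e-25 by limma. Its size exceeded that of 95.2% of all genes tested in this comparison.

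RBOHF rose less in the same leaves. In the water control local leaves, it was at 241, 258 and 261 normalized counts. In the water high light local leaves, it was at 338, 333 and 310. The libraries of the pair of groups did not overlap. The means were 253 ± 10.8 and 327 ± 14.7 (SD, n = 3), a rise of 0.37 (log2, SE 0.0776, 1.29-fold, limma adjusted p of 0.000214). Both of the 2 tested members were thus called in this comparison, against 32.3% of all 18314 genes tested. Every light and DPI comparison here counts a gene as called at a Benjamini-Hochberg adjusted p under 0.05 in limma on log2(normalized count + 1), a scale on which a change of 1 is a doubling.

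Markers of other cell types moved in these leaves too. The summed level of the 4 vasculature markers was 3005 to 3162 normalized counts in water control and 3565 to 3682 in water high light local leaves, and that of the 6 guard cell markers was 1361 to 1512 against 1010 to 1051. The vasculature sum is mostly SUC2, a phloem sucrose transporter, which rose (log2 0.35), while XCP1, a xylem protease, fell (−0.92), and APL (0.26) and ATHB8 (−0.15) did not pass. Of the guard cell markers, 5 of 6 fell, against 14.4% of all genes called lower. Their part in the changes of RBOHD and RBOHF was not tested. In bulk leaves, more cells of a type and more RNA per cell cannot be told apart.

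In the systemic leaf, which received no high light itself, RBOHD rose and RBOHF was not called. RBOHD was at 1140, 1089 and 1092 normalized counts in the water control and at 1648, 1773 and 1642 in the water high light systemic leaves. All 3 libraries of stressed plants were above all 3 of control plants. The means were 1107 ± 28.4 and 1688 ± 74.1 (SD, n = 3), a rise of 0.61 (log2, SE 0.0422, 1.52-fold, limma adjusted p of 8.67e-15). RBOHF was at 287, 297 and 278 in the water control and at 257, 267 and 254 in the water high light systemic leaves. These libraries did not overlap either, but the difference of −0.14 (log2, SE 0.0776, 95% interval −0.30 to 0.01) did not pass (limma adjusted p of 0.285). The tested members called were therefore 1 of 2, against 10.8% of all genes. The summed vasculature markers were 3287 to 3341 in the control and 2707 to 3048 in the stressed systemic leaves, with SUC2 (log2 −0.17) and ATHB8 (−0.24) called lower and the other 2 markers not called. Guard cell markers summed to 1399 to 1511 and 1437 to 1526, with overlap. Their part was not tested.

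**Figure D1:**
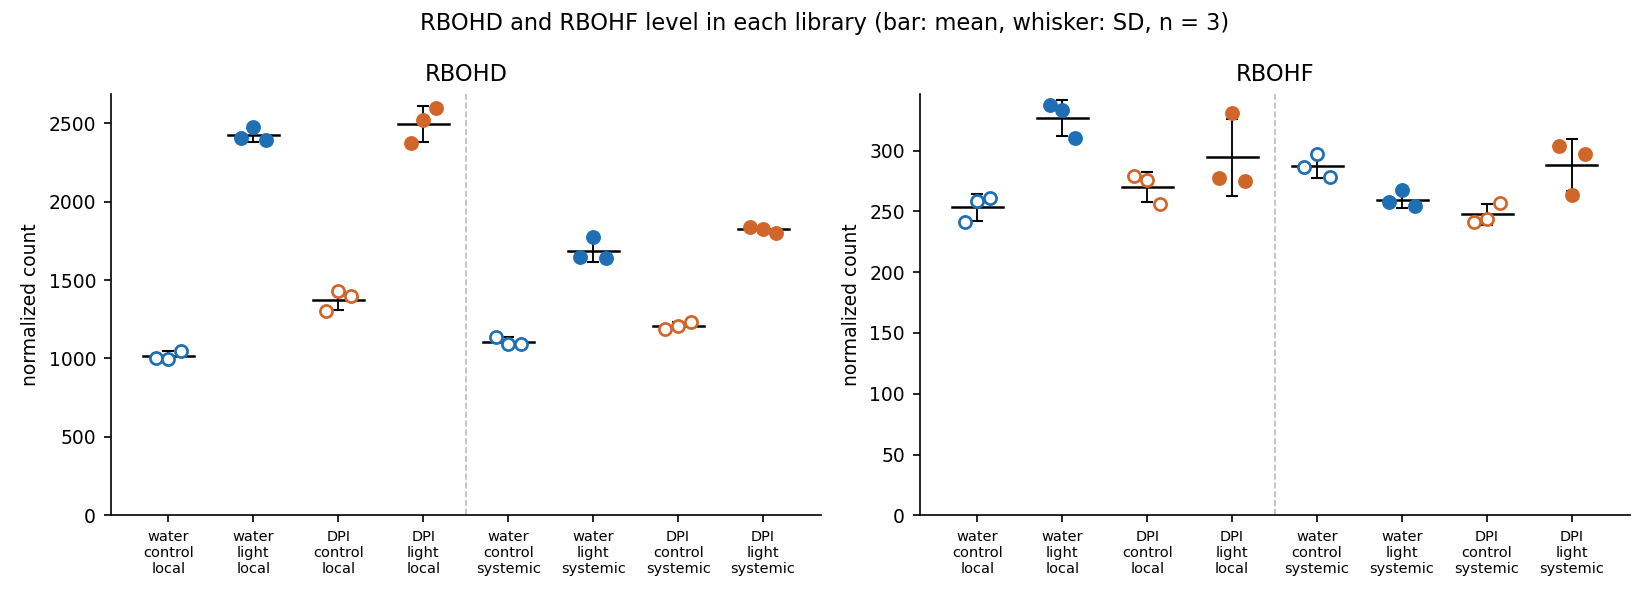
RBOHD (left) and RBOHF (right) in normalized counts on a linear axis from 0, with 1 point per library, open for control and filled for high light, blue for water and orange for DPI, and with the mean (bar) and SD (whisker, n = 3) of each group. RBOHD lay between 997 and 1428 in all control libraries and between 1642 and 2594 in all high light libraries, while RBOHF stayed between 241 and 338 in all 24.

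With the DPI drop, high light again raised RBOHD in both leaves. In local leaves, it was at 1301, 1428 and 1397 normalized counts in DPI control and at 2373, 2518 and 2594 in DPI high light. The means were 1375 ± 66.5 and 2495 ± 113 (SD, n = 3), a rise of 0.86 (log2, SE 0.0422, 1.81-fold, limma adjusted p of 4.64e-20). In systemic leaves, it was at 1190, 1204 and 1234 in DPI control and at 1839, 1826 and 1801 in DPI high light. All lit-plant libraries were above all control libraries in either leaf. The systemic means were 1209 ± 22.1 and 1822 ± 18.9 (SD, n = 3), a rise of 0.59 (log2, SE 0.0422, 1.51-fold, limma adjusted p of 3.73e-14).

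RBOHF was not called in either leaf under DPI. In local leaves, it was at 279, 276 and 256 normalized counts in DPI control and at 278, 331 and 275 in DPI high light, so that the groups overlapped. The difference was 0.12 (log2, SE 0.0776, 95% interval −0.04 to 0.28, limma adjusted p of 0.259). In systemic leaves, it was at 241, 244 and 257 in DPI control and at 303, 263 and 297 in DPI high light. There the groups did not overlap, and the difference was 0.22 (log2, SE 0.0776, 95% interval 0.06 to 0.37) with a limma adjusted p of 0.0658. It passed with edgeR on the recovered reads (adjusted p of 0.0419) and without DPI high light systemic leaf replicate 2 (0.28, limma adjusted p of 0.0269), its lowest library. The tested members called were 1 of 2 in each leaf, against 33.8% of all genes in local and 11.7% in systemic leaves.

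Markers of other cell types moved with light under DPI as well. In local leaves, guard cell markers summed to 1287 to 1356 normalized counts in DPI control and 963 to 1063 in DPI high light. Of these markers, 5 of 6 fell, against 15.9% of all genes called lower, and DESeq2 called 4 of them lower. Vasculature markers summed to 3643 to 3821 and 4267 to 4458, with SUC2 called higher (log2 0.27) and ATHB8 lower (−0.25). In systemic leaves, vasculature markers summed to 3590 to 3716 and 3731 to 3816 and guard cell markers to 1371 to 1407 and 1309 to 1373, and no single marker of either list was called by limma, edgeR or DESeq2. Without adjustment in limma, 1 vasculature marker was higher and 1 lower there at p under 0.05 and 2 guard cell markers were lower. Their part in the changes of RBOHD and RBOHF was not tested.

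The DPI drop went with more RBOHD transcript in leaves that received no high light. The values given above put DPI control above water control libraries without overlap in local leaves, a difference of 0.44 (log2, SE 0.0422, 1.35-fold, limma adjusted p of 2.65e-11). In systemic leaves, the groups were close but separate (1190 to 1234 against 1089 to 1140), with a difference of 0.13 (log2, SE 0.0422, 1.09-fold, limma adjusted p of 0.0141). This small rise lost its call without water control systemic leaf replicate 2 or 3 or DPI control systemic leaf replicate 3 (limma adjusted p of 0.0548, 0.0512 and 0.0631).

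RBOHF did not follow RBOHD under DPI. In unstressed local leaves, it differed by 0.09 (log2, SE 0.0776, 95% interval −0.06 to 0.25, limma adjusted p of 0.367), and its libraries of the DPI and water groups overlapped. In unstressed systemic leaves, it was lower with DPI in every library (241 to 257 against 278 to 297), a fall of −0.21 (log2, SE 0.0776, 0.862-fold, limma adjusted p of 0.0254). That call was lost with DESeq2 on the recovered reads (adjusted p of 0.0568) and without water control systemic leaf replicate 1 or 2 or DPI control systemic leaf replicate 1 or 2 (limma adjusted p from 0.0529 to 0.0906). The tested members called were 1 of 2 in local leaves, against 40.5% of all genes, and 2 of 2 in systemic leaves, against 39.5%. Vasculature markers summed to 3643 to 3821 normalized counts in DPI control and 3005 to 3162 in water control local leaves, and to 3590 to 3716 and 3287 to 3341 in the systemic leaves. In each leaf, SUC2 was called higher (log2 0.37 and 0.17) and another marker lower, XCP1 in local (−0.62) and APL in systemic leaves (−0.27). In local leaves, mesophyll markers summed to 547930 to 566895 with DPI and 585788 to 653593 with water, and guard cell markers to 1287 to 1356 and 1361 to 1512, neither with overlap. In systemic leaves, mesophyll markers summed to 566837 to 602940 with DPI and 592134 to 644672 with water, and guard cell markers to 1371 to 1407 and 1399 to 1511, both with overlap. Their part was not tested. The comparisons under light and under DPI share their water control libraries.

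Whether the light response of a member depended on the drop was tested as a difference of differences. In local leaves, the response of RBOHD was smaller under DPI than under water by −0.39 (log2, SE 0.0597, 95% interval −0.52 to −0.27, limma adjusted p of 2.11e-06). The lit libraries themselves overlapped (2391 to 2475 with water and 2373 to 2594 with DPI), while the control libraries did not. The smaller response thus went with the higher unstressed level and not with a lower level under light. In systemic leaves, the responses of RBOHD under water and DPI differed by −0.02 (log2, 95% interval −0.14 to 0.10, limma adjusted p of 0.939).

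For RBOHF, the order was different. The drop by light difference was −0.25 in local leaves (log2, SE 0.1097, 95% interval −0.47 to −0.03, limma adjusted p of 0.113). In systemic leaves, it was 0.36 (log2, SE 0.1097, 95% interval 0.14 to 0.58, limma adjusted p of 0.0385), from values that went down under water and up under DPI. The systemic call was lost with DESeq2 (adjusted p of 0.0781) and when any 1 of 8 systemic libraries was left out (limma adjusted p from 0.0628 to 0.118), these being replicates 1 and 2 of both controls and replicates 1 and 3 of both high light groups. The local difference passed without DPI high light local leaf replicate 2 (−0.34, limma adjusted p of 0.0268), the RBOHF library at 331 normalized counts. The tested members called were 1 of 2 in either leaf, against 19.9% of all genes in local and 6.4% in systemic leaves.

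**Figure D2:**
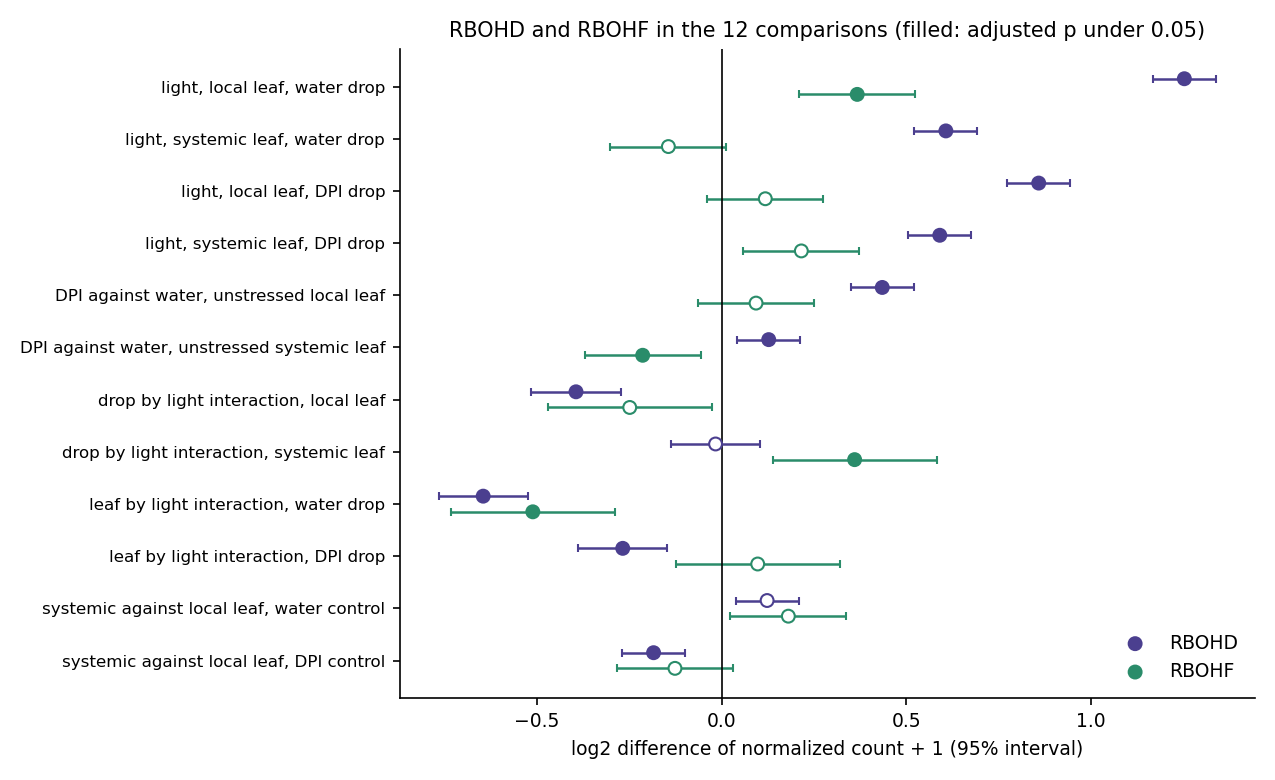
Differences of RBOHD (purple) and RBOHF (green) in the 12 comparisons, on the horizontal axis as log2 of normalized count + 1 with 95% intervals from limma, filled where the adjusted p was under 0.05. RBOHD ran from −0.65 to 1.25 and RBOHF from −0.51 to 0.37.

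The light responses of the local and the systemic leaf differed for both members in water-treated plants. That of RBOHD was smaller in the systemic leaf by −0.65 (log2, SE 0.0597, 95% interval −0.77 to −0.53, limma adjusted p of 2.70e-11). That of RBOHF differed by −0.51 (log2, SE 0.1097, 95% interval −0.73 to −0.29, limma adjusted p of 0.000516), a rise in the local leaf set against slightly lower values in the systemic leaf. Under DPI, the response of RBOHD was smaller in the systemic leaf by −0.27 (log2, SE 0.0597, limma adjusted p of 0.00110), a call that was lost after quantile normalization (−0.16, adjusted p of 0.0629). RBOHF differed by 0.10 (log2, SE 0.1097, 95% interval −0.12 to 0.32, limma adjusted p of 0.658) under DPI. The tested members called were 2 of 2 under water, against 18.8% of all genes, and 1 of 2 under DPI, against 13.2%.

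Without light, the differences between the leaves were small in either member. The water control libraries still did not overlap, for RBOHD (997 to 1049 local, 1089 to 1140 systemic) or for RBOHF (241 to 261, 278 to 297). In water control plants, the systemic leaf was above the local leaf by 0.12 for RBOHD (log2, SE 0.0422, limma adjusted p of 0.123) and by 0.18 for RBOHF (log2, SE 0.0776, limma adjusted p of 0.271). None of the 2 tested members was thus called by limma, by edgeR or by DESeq2, against 2.77% of all genes by limma, while both had an unadjusted limma p under 0.05. In DPI control plants, RBOHD was lower in the systemic than in the local leaf by −0.18 (log2, SE 0.0422, limma adjusted p of 0.00342) and RBOHF differed by −0.13 (log2, SE 0.0776, limma adjusted p of 0.448). There 1 of 2 tested members was called, against 5.56% of all genes.

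Ordered by mean level, the 8 groups ran for RBOHD from water control local (1016) through water control systemic (1107), DPI control systemic (1209), DPI control local (1375), water high light systemic (1688), DPI high light systemic (1822) and water high light local (2425) to DPI high light local leaves (2495). Libraries of neighbouring groups in this order overlapped only between the last pair. For RBOHF, the order ran from DPI control systemic (247) to water high light local leaves (327), and libraries of neighbouring groups overlapped at every step.

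The balance between the pair moved towards RBOHD in the 4 light comparisons and in the 2 comparisons of DPI with water in unstressed leaves. Its share of the family's reads was 78.7% to 80.0% in water control local, 87.5% to 87.9% in water high light local, 81.8% to 83.8% in DPI control local and 87.9% to 90.1% in DPI high light local leaves. In systemic leaves, the shares were 78.1% to 79.6%, 86.3% to 86.6%, 82.1% to 82.6% and 85.5% to 87.1% in the same order of groups. The log2 ratio of RBOHD to RBOHF rose with light by 0.89 in water local, 0.75 in water systemic, 0.74 in DPI local and 0.37 in DPI systemic leaves, and it was higher with DPI than with water by 0.34 in both unstressed leaves. The groups did not overlap in any of these 6 comparisons. An exact two-sided permutation test gave p = 0.1 in each (adjusted p of 0.1 over the 6), the smallest value that 3 against 3 libraries allow, so that no comparison could reach 0.05. Because both genes are read in the same library, this ratio does not depend on how libraries were scaled.

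The members near the floor are given as reads, since 8 of the 10 did not reach 10 normalized counts in 3 libraries and were not tested. RBOHE had 5, 2 and 2 reads in water control local, 4, 7 and 9 in water high light local, 3, 4 and 3 in DPI control local and 7, 8 and 10 in DPI high light local leaves. In systemic leaves, it had 1, 4 and 1 reads in water control, 1 in each water high light library, 4, 8 and 5 in DPI control and 0, 3 and 3 in DPI high light. Its 2 highest counts, 9 and 10 reads, were both in lit local leaves. Its level in DPI high light local libraries lay above those in DPI control local libraries without overlap. The reverse held in systemic leaves, and all these counts were 10 reads or fewer. Neither difference passed in limma when low values were not filtered (log2 1.23 in local and −1.27 in systemic leaves). The adjusted p was 0.0539 in local leaves and higher in systemic leaves, so that opposite responses of RBOHE are not established.

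RBOHC had 0, 6 and 2 reads in water control local, 3, 4 and 8 in water high light local, 3, 4 and 3 in DPI control local and 1, 3 and 1 in DPI high light local leaves. In systemic leaves, it had 0, 1 and 4 in water control, 0, 3 and 5 in water high light, 4, 6 and 7 in DPI control and 2, 1 and 6 in DPI high light. No light difference was detectable at these counts. In unstressed systemic leaves, RBOHC was at 3.97 to 6.10 normalized counts with DPI and 0 to 2.67 with water, without overlap. That difference did not pass when low values were not filtered (log2 1.59, limma adjusted p of 0.0576). The low level of RBOHC stood beside root hair markers at or near 0. RBOHI had between 0 and 6 reads, with its highest in DPI control local leaf replicate 3.

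When no filter on low values was applied, 24987 genes were tested and limma called RBOHE and RBOHG besides. RBOHE differed in the leaf by light comparison under DPI by −2.50 (log2, adjusted p of 0.0136, against 9.01% of all genes called there). Its light response under DPI did not pass in either leaf alone. RBOHG was called in the light response of DPI local leaves (−0.68, adjusted p of 0.0339, against 24.9%) and in DPI against water in unstressed local leaves (0.68, adjusted p of 0.0291, against 29.2%). The RBOHG calls rest on 1 read in each of 2 libraries, far under the floor, and fitted values at such counts depend on the pseudocount.

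**Figure D3:**
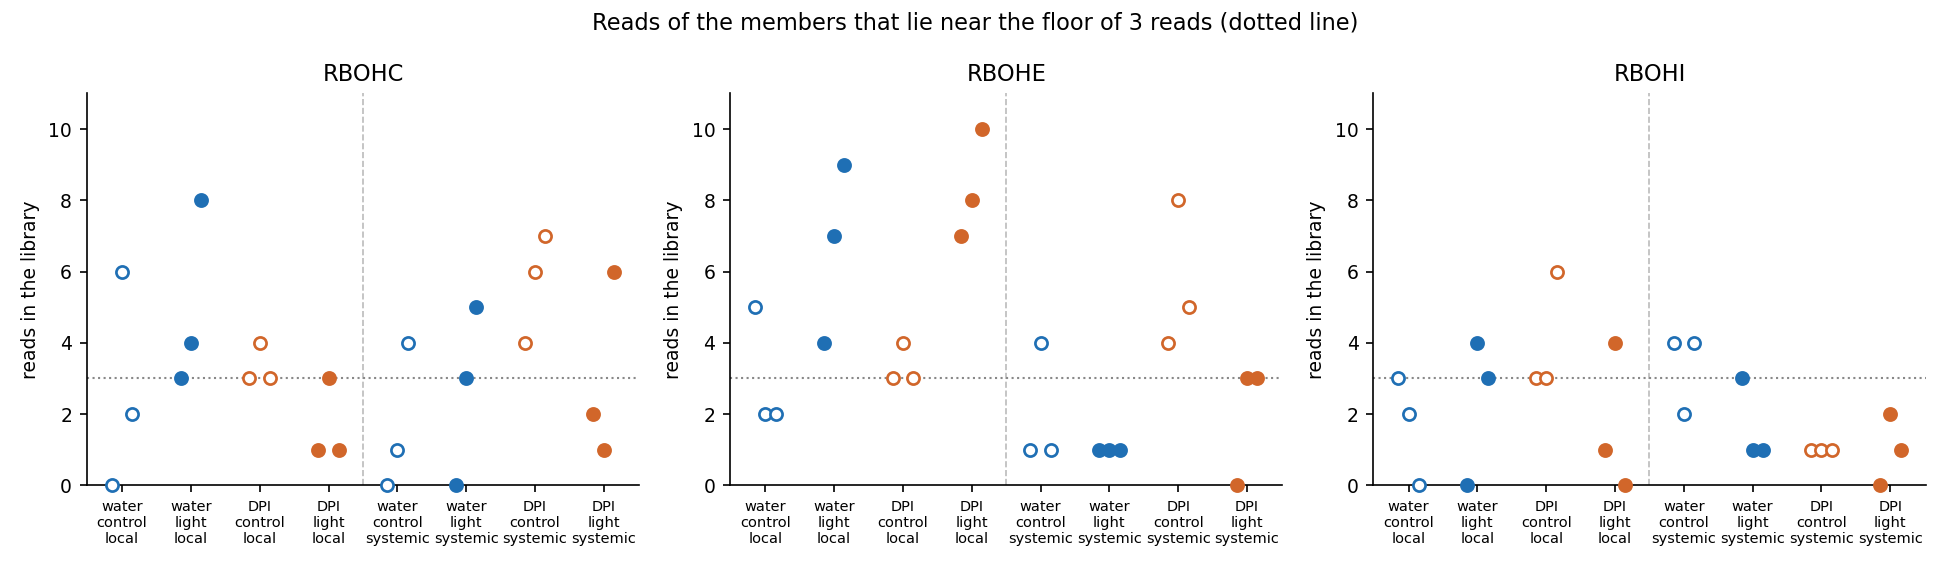
Reads per library (vertical axis) of RBOHC, RBOHE and RBOHI in the 8 groups, open for control and filled for high light, blue for water and orange for DPI, with the floor of 3 reads as a dotted line. RBOHE reached 10 reads in a DPI high light local library, RBOHC at most 8 and RBOHI at most 6.

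Of 28 genes listed as regulators of RBOH proteins (calcium-dependent kinases, receptor kinases and their partners, small GTPases of the ROP family and G protein subunits), 27 were tested. In local leaves, light raised 15 and lowered 1 under water (17.9% and 14.4% of all genes were called in these directions), and raised 17 and lowered 1 under DPI (17.9% and 15.9%). Other settings of the processing, leaving out a library aside, raised 11 to 16 under water and 13 to 17 under DPI. With edgeR and with DESeq2, light raised 15 under either drop. In systemic leaves, light raised 8 and lowered 1 under water (7.66% and 3.1%), and raised 12 and lowered 1 under DPI (7.15% and 4.56%). The gene lowered under DPI was not called by edgeR or DESeq2. The median difference over the list was 0.20, 0.23, 0.06 and 0.24 in these 4 comparisons (log2), and that over all tested genes was between −0.005 and 0.004 in each. DPI against water raised 16 and lowered 3 in unstressed local leaves (21.5% and 19% of all genes) and raised 15 and lowered 4 in systemic leaves (20.7% and 18.8%).

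CPK28, a calcium-dependent kinase that promotes the turnover of the RBOHD-activating kinase BIK1, had the highest rise of the list in each light response. Its mean went from 572 ± 60.1 to 1925 ± 56.8 normalized counts in water local leaves (SD, n = 3, log2 difference 1.75) and from 607 ± 16.7 to 1319 ± 66.9 in water systemic leaves (1.12). With DPI, it went from 1232 ± 64.9 to 4108 ± 110 in local (1.74) and from 1050 ± 36.1 to 2443 ± 44.4 in systemic leaves (1.22). CPK28 thus rose with RBOHD in all 4 settings, and it also had the highest rise with DPI in unstressed local leaves (1.11, limma adjusted p of 1.12e-20). In unstressed systemic leaves, the highest rise with DPI was that of CBL1, a calcium sensor that acts with CIPK26 on RBOHF (164 ± 6.39 to 314 ± 45.2, log2 difference 0.92), with CPK28 at 0.79. CBL1 also rose with DPI in local leaves (0.79) and in all 4 light responses (0.94 to 1.17).

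Falls were fewer than rises among the regulators in each light response and each unstressed DPI comparison. ROPGEF1, an exchange factor that activates ROP GTPases, fell with light in water local (−0.23), DPI local (−0.22) and DPI systemic leaves (−0.17, limma adjusted p of 0.0458) and with DPI in unstressed local (−0.42) and systemic leaves (−0.28). Its call for light in DPI systemic leaves was lost with edgeR and with DESeq2. FLS2, the flagellin receptor upstream of RBOHD, fell with light in water systemic leaves from 455 ± 41.8 to 310 ± 26.3 (−0.55) and with DPI in unstressed systemic leaves (−0.27). CIPK26, a kinase that phosphorylates RBOHF, fell with DPI in unstressed systemic leaves from 1577 ± 57.0 to 1236 ± 49.9 (−0.35) and in local leaves (−0.32), and it rose with light in local leaves under water (0.12) and DPI (0.18). BIK1, which phosphorylates RBOHD directly and was named here after its values were seen, did not pass in any light response (log2 differences of 0.16, 0.17, 0.07 and 0.06, in water local, water systemic, DPI local and DPI systemic leaves). The light responses of 7 regulators were lower in the systemic than in the local leaf under water (10.3% of all genes) and of 4 under DPI (7.13%).

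**Figure D4:**
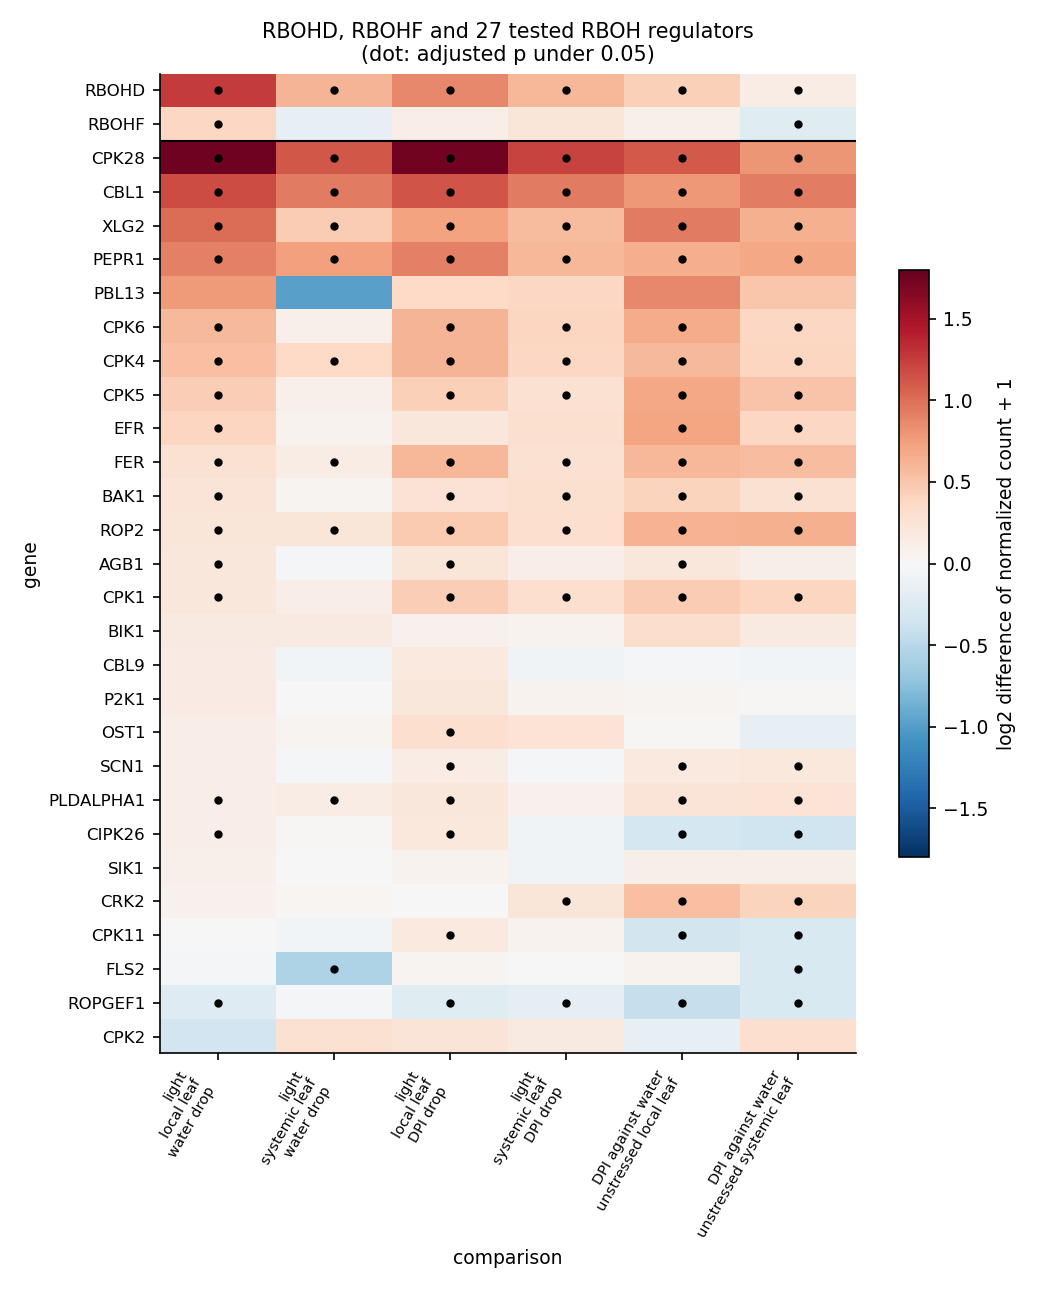
Log2 differences of RBOHD, RBOHF and the 27 tested RBOH regulators (rows) in the 4 light responses and the 2 unstressed DPI comparisons (columns), red for higher and blue for lower on a symmetric colour scale, with a dot where the limma adjusted p was under 0.05. CPK28, with 1.75 in water local leaves, stands at the top of the regulators, which are ordered by that comparison.

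The FRO ferric reductases share the membrane electron-transfer fold of RBOH proteins but reduce metal ions, and 6 of 8 were tested. Light raised 1 and lowered 1 in water local, lowered 1 in water systemic, raised 1 and lowered 2 in DPI local and lowered 1 in DPI systemic leaves. Of all genes, light raised 17.9% and lowered 14.4% in water local, lowered 3.1% in water systemic, raised 17.9% and lowered 15.9% in DPI local and lowered 4.56% in DPI systemic leaves, and 1 gene of 6 in local leaves is near these shares. FRO3, a mitochondrial reductase, rose with light in local leaves (1202 ± 17.3 to 1595 ± 29.9 under water, log2 0.41, and 1182 ± 3.12 to 1673 ± 25.9 under DPI, 0.50) and fell in water systemic leaves (−0.23) and with DPI in unstressed systemic leaves (−0.15). FRO7, a chloroplast reductase, was lower with DPI in unstressed local (6031 ± 229 to 3843 ± 149, −0.65) and systemic leaves (−0.58). It also fell with light in water local (−0.15), DPI local (−0.36) and DPI systemic leaves (−0.18). FRO7 has a close neighbour, FRO6, and the counting of reads that fit both is not stated, so that its level is uncertain. With DPI, 2 rose and 2 fell in unstressed local leaves (21.5% and 19% of all genes) and 2 rose and 4 fell in systemic leaves (20.7% and 18.8%). FRO4 rose in both (0.42 and 0.44), and FRO2, the iron reductase of roots, was at 47.8 ± 4.31 and 32.2 ± 10.9 (−0.61, limma adjusted p of 0.0400) in the systemic pair.

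Apoplastic class III peroxidases are another source of apoplastic reactive oxygen species, and 3 of 6 were tested. Light raised 2 in water local (17.9% of all genes rose) and 1 in water systemic leaves (7.66%), lowered 1 in DPI local leaves (15.9% fell) and raised all 3 in DPI systemic leaves (7.15% rose). DPI raised 2 in local (21.5%) and 1 in systemic unstressed leaves (20.7%). PRX71 rose with light in water local leaves from 16.0 ± 5.53 to 44.9 ± 2.98 (log2 1.48), with light in DPI systemic leaves (1.08) and with DPI in unstressed local leaves to 52.0 ± 16.5 (1.64). PRX4 rose with light in DPI systemic leaves from 4.87 ± 1.88 to 17.2 ± 8.11 (1.56, limma adjusted p of 0.0323). Its control level there lay near the floor of 2.00 to 4.27 normalized counts. PRX4 thus entered the test only through libraries where it was higher, and its call is weak support for a rise. PRX34, which contributes to the burst after microbial recognition, rose with light in water local (0.36), water systemic (0.23) and DPI systemic leaves (0.24) and fell in DPI local leaves (−0.55). It also rose with DPI in unstressed local (1.12) and systemic leaves (0.73). Its near-identical neighbour PRX33 makes its level uncertain.

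Of 10 genes of hydrogen peroxide sensing and systemic signalling, all tested, light lowered 2, 1, 2 and 1 in water local, water systemic, DPI local and DPI systemic leaves, against 14.4%, 3.1%, 15.9% and 4.56% of all genes. None was raised in any light response by limma, edgeR or DESeq2. At an unadjusted limma p under 0.05, 1 was higher in water local and 2 in water systemic leaves. GHR1, a guard cell receptor-like kinase of hydrogen peroxide signalling, fell in water local leaves from 230 ± 11.3 to 144 ± 18.0 (log2 −0.67). PDLP5, a plasmodesmal protein, fell in DPI local leaves from 133 ± 6.57 to 51.3 ± 4.89 (−1.36), after a higher unstressed level with DPI than with water (61.2 ± 11.7, log2 difference 1.13). The fall of GHR1 stood beside lower summed guard cell markers in lit local leaves, whose part was not tested. With DPI in unstressed leaves, 2 rose and 3 fell in local leaves (21.5% and 19% of all genes). In systemic leaves, 2 rose and 2 fell with DPI (20.7% and 18.8%). The 5 of 10 called in local and 4 of 10 in systemic leaves are near the 40.5% and 39.5% of all genes. CNGC2, a calcium channel, fell with light in water local (−0.37) and water systemic leaves (−0.12) and was lower with DPI in both unstressed leaves (−0.45 in each). PIP2;1, an aquaporin that passes hydrogen peroxide, fell with light in DPI systemic leaves (−0.13) and was lower with DPI in unstressed local (−0.21) and systemic leaves (−0.19). HPCA1, a hydrogen peroxide sensor, was higher with DPI in unstressed local (0.44) and systemic leaves (0.40) and fell with light in DPI local leaves (−0.25).

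The genes whose level most resembled that of a member over the 24 libraries were found among 14797 other tested genes with a mean of at least 50 normalized counts. For RBOHD, they were S6K2, a serine/threonine protein kinase (Pearson r of 0.991), AT4G27280, which encodes a calcium-binding EF-hand protein (0.976), and TIP, annotated as TCV-interacting protein (0.969). For RBOHF, they were PHL1 (0.832), PP2-A1, a phloem protein (0.808), and AT2G23680, annotated in the cold acclimation protein WCOR413 family (0.790). The points of each correlation share their libraries and group structure, so that these values are descriptions.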

How the data were processed

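Per the labels and the study's methods, the authors checked single-end reads with FastQC (version 0.11.7), aligned them with STAR (2.4.0.1) to TAIR10 and scaled the gene counts with DESeq2 (1.20.0). The deposited values are a signal, namely each gene's reads over a size factor specific to the library. They are not raw counts, but 100% of the values were whole reads times a factor (tolerance 0.001 reads). How reads with several locations were counted is not given in the sources used here.

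Levels were tested as log2(normalized count + 1) with limma (3.58.1, R 4.3.3). Genes with at least 10 normalized counts in at least 3 libraries (18314) entered 1 fit of all 24 libraries with a mean per group, 16 residual degrees of freedom and a trended variance prior. Tests were two-sided with Benjamini-Hochberg adjustment in each of 12 comparisons (threshold 0.05). The count models edgeR (4.0.16) and DESeq2 (1.42.0) were run on the recovered reads as alternatives, beside other pseudocounts (0.5 and 5), no filter, a mean of at least 50, TMM rescaling, quantile normalization, only the groups compared, a replicate block and leaving out each library. The procedure was tested on simulated data.

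Named were all 10 members, from each companion list the largest rise and fall past the threshold with 1 sign in all same-numbered replicates, and for each tested member the 3 genes most correlated with it. The members and lists were chosen with earlier results of these data known, so that no list is independent support. Promoter sequence and its coordinates come from RefSeq's TAIR10.1, while the table carries no coordinates.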

Additional observations from a re-analysis of the deposited data

Results flagged for a closer look

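A test of the difference between 2 responses passed for 5 results. The light response of RBOHD in local leaves was smaller under DPI than under water (−0.39, log2). That of RBOHF in systemic leaves was higher under DPI than under water (0.36), a call that was lost without any 1 of 8 libraries. The light responses of the systemic and the local leaf differed under water for RBOHD (−0.65) and for RBOHF (−0.51), and under DPI for RBOHD (−0.27). With 3 libraries per group, outlying single libraries were not tested for.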

How the results depend on the processing

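The rise of RBOHD with light in both leaves under both drops, its rise with DPI in unstressed local leaves and the rise of RBOHF with light in water local leaves kept direction and call under every alternative. Counts of called members that moved were 2 in place of 1 without a filter on low values (light under DPI in local leaves, DPI in unstressed local leaves, leaf by light under DPI), 2 in place of 1 with edgeR (light under DPI in systemic leaves), 1 in place of 2 with DESeq2 (DPI in unstressed systemic leaves), 0 in place of 1 with DESeq2 (drop by light in systemic leaves) and 0 in place of 1 after quantile normalization (leaf by light under DPI). The count without a filter rose because RBOHG or RBOHE was then tested, and the cause of the other moves was not tested. Leaving out 1 library at a time gave 0 to 2 called members for DPI in unstressed systemic leaves, 0 to 1 for drop by light in systemic leaves, 1 to 2 for drop by light in local leaves and 1 to 2 for light under DPI in systemic leaves. It changed no other count of called members. The drop by light difference of RBOHD in systemic leaves, −0.02, changed sign after quantile normalization (0.000679) and without water high light systemic leaf replicate 2 (0.0196), with a range of −0.0377 to 0.0196 over the libraries left out. Over all alternatives, RBOHD and RBOHF gave 816 values, of which 792 kept direction and call, 18 lost and 4 gained a call and 2 changed sign. Of 3264 counts of the companion lists, 129 moved by over 1.5 times.

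Any pairing of the samples by replicate number was weak. Deviations of same-numbered libraries correlated at −0.041 to 0.089 over 84 pairs (median 0.021), none over 0.1. Pairs of different number had a median of −0.010, and 20 of 24 libraries were closest to their own number. A weak pairing is therefore not excluded, and the main fit used no block. With the replicate block, the counts of called members were the same in all 12 comparisons (2 for light in water local leaves). Every group holds each replicate number once, so that the block could not move a log2 difference and only its p could change. For the ratio of RBOHD to RBOHF, the differences were likewise fixed by this balance (0.89, 0.75, 0.74, 0.37, 0.34 and 0.34). The exact p with the block was 0.25 in each, the smallest that 3 pairs allow.

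At this depth, 5 members never exceeded the floor and 3 more lie too near it for a test. Sample sizes of 3 pools per group leave differences of RBOHF near 0.2 (log2) on either side of the threshold.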
